A study of Mus musculus with 6 samples.

Results

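The 31 genes described here encode enzymes and carriers of the tricarboxylic acid cycle, of pyruvate entry into mitochondria and of the malate-aspartate shuttle. They were chosen by name from a table of 43346 genes measured in mouse gastrocnemius muscle, and all 31 were present and passed the low-count filter. By role they fall into 12 cycle enzymes, 10 genes of pyruvate entry with its kinases and phosphatase, 4 genes of anaplerosis and citrate export, and 5 genes of the malate-aspartate shuttle. RNA came from 6 male mice aged 6 months, 1 library per mouse. The knockout group was 3 Vdrfl/fl.actin iCre mice injected with tamoxifen at 100 mg/kg for 5 days, and the vehicle group was 3 mice of the same genotype that received 10% ethanol in corn oil. All 6 mice therefore carried a Vdr gene (vitamin D receptor) with loxP sites around exon 3 and the transgene Tg(ACTA1-cre/Esr1*)2Kesr. In that transgene the skeletal actin promoter ACTA1 drives a Cre recombinase that acts only once tamoxifen is given. The promoter is active in muscle fibres, so other cells of the muscle are not targeted. Effects of tamoxifen, of active Cre and of the deletion cannot be told apart, since they came together in the knockout group. Tamoxifen-treated Vdrfl/fl mice without Cre, which bear on tamoxifen alone, were not analysed here. Nor were mice with active Cre and a Vdr gene without loxP sites.

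As background, the tricarboxylic acid cycle oxidizes acetyl groups in the mitochondrial matrix and passes electrons to the respiratory chain. Pyruvate from glycolysis enters the matrix through the mitochondrial pyruvate carrier and is turned into acetyl-CoA by the pyruvate dehydrogenase complex, which pyruvate dehydrogenase kinases switch off and a phosphatase switches on again. The malate-aspartate shuttle carries the electrons of cytosolic NADH into the matrix. In skeletal muscle these systems are richer in slow and oxidative fibres than in fast glycolytic ones, and the gastrocnemius mixes both.

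The libraries held 30486874 to 39909535 counted reads, of which the 31 genes took 1.31%, 1.67% and 1.36% in knockout replicates 1, 2 and 3, against 1.37%, 0.995% and 1.14% in vehicle replicates 1, 2 and 3. The tissue label was checked against muscle fibre genes (Acta1, Ckm, Des, Mb, Ryr1 and Cacna1s), whose summed level was 48399 to 55997 CPM (read counts relative to the TMM-scaled library size) in knockout and 47311 to 56521 CPM in vehicle libraries. Vdr was counted 52, 27 and 40 times in knockout and 46, 48 and 61 times in vehicle libraries, with a log2 fold change of -0.37 (SE 0.37; edgeR adjusted p = 0.848). These counts cover the whole gene, not exon 3 alone, so they do not check the deletion. Slow fibre content differed widely. The summed level of 10 slow fibre markers was 6198, 32808 and 10346 CPM in knockout replicates 1, 2 and 3, against 10158, 1482 and 1232 CPM in vehicle replicates 1, 2 and 3. Knockout replicate 2 thus stood far above the other libraries, and vehicle replicates 2 and 3 far below them.

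Setting knockout against vehicle libraries addresses whether transcripts of these enzymes differ once Vdr deletion is induced in adult muscle. Of the 31 genes, 27 (87.1%) had a higher estimate in knockout libraries, where 52.9% of all 15583 tested genes did. Their log2 fold changes had a median of 0.16, against 0.0211 over all tested genes. No gene of the 31 passed the test. With edgeR's quasi-likelihood test, Benjamini-Hochberg adjusted over all tested genes, 0 of 15583 genes (0%) had an adjusted p below 0.05, and the smallest adjusted p among the 31 was 0.643. With DESeq2 109 genes (0.699%) passed over the whole table and again 0 of the 31, among which DESeq2 gave 0.317 as the smallest adjusted p. Without adjustment, 2 of 31 genes (6.45%), Pcx and Pdk1, had p below 0.05 in edgeR and were higher, where 4.02% of all tested genes were higher, and 0 of 31 were lower where 3.42% of all tested genes were (7.44% in either direction). The number higher was 5 without vehicle replicate 1, where 5.72% of all tested genes were higher at that threshold. It was 0 without knockout replicate 3 (3.17% of all tested genes) or vehicle replicate 3 (1.9%), and 1 without knockout replicate 1 (7.05%), knockout replicate 2 (2.19%) or vehicle replicate 2 (2.35%). Knockout and vehicle libraries separated without overlap in 1 of the 31 genes (3.23%), Pdk2, against 12.3% of all tested genes. Of the 31, 0 separated as higher and 1 as lower, where 5.83% and 6.48% of all tested genes did. The standard errors ran from 0.16 to 0.46 on the log2 scale.

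**Figure D1:**
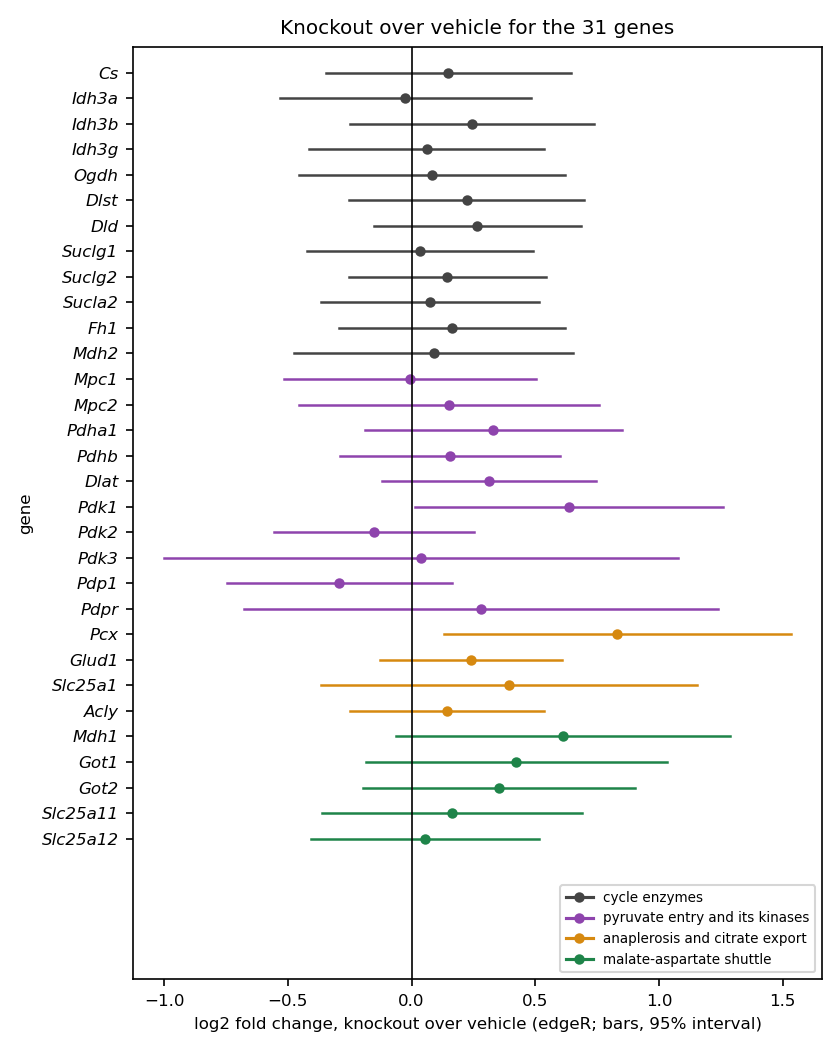
Log2 fold change of knockout over vehicle (x axis) for each of the 31 genes (rows), coloured by role. Points are edgeR estimates from 3 knockout and 3 vehicle libraries and bars their 95% intervals. The intervals of Pdk1 and Pcx lie above 0, and all others include 0.

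The shift in estimates did not follow treatment library by library. Vehicle replicate 2 was the lowest of the 6 libraries in 20 of the 31 genes, although it was the lowest in 14.9% of all tested genes. Knockout replicate 2 was the highest in 13 of the 31 genes, where it was the highest in 27.6% of all tested genes. Knockout replicate 1 was the highest in 9 (12.2% of all tested genes), vehicle replicate 1 in 6 (9.4%) and knockout replicate 3 in 1 (15.3%). With each gene centred on its own 6 values, the log2 level averaged over the 31 genes came to 0.13, 0.16 and 0.0075 in knockout replicates 1, 2 and 3, against 0.11, -0.25 and -0.15 in vehicle replicates 1, 2 and 3. Vehicle replicate 1 thus lay among the knockout libraries. Without vehicle replicate 2, 21 of the 31 estimates were higher in knockout, with a median of 0.0740 (0.02575 over all tested genes). In bulk tissue such as this, fewer cells of a type and less RNA per cell cannot be told apart.

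**Figure D2:**
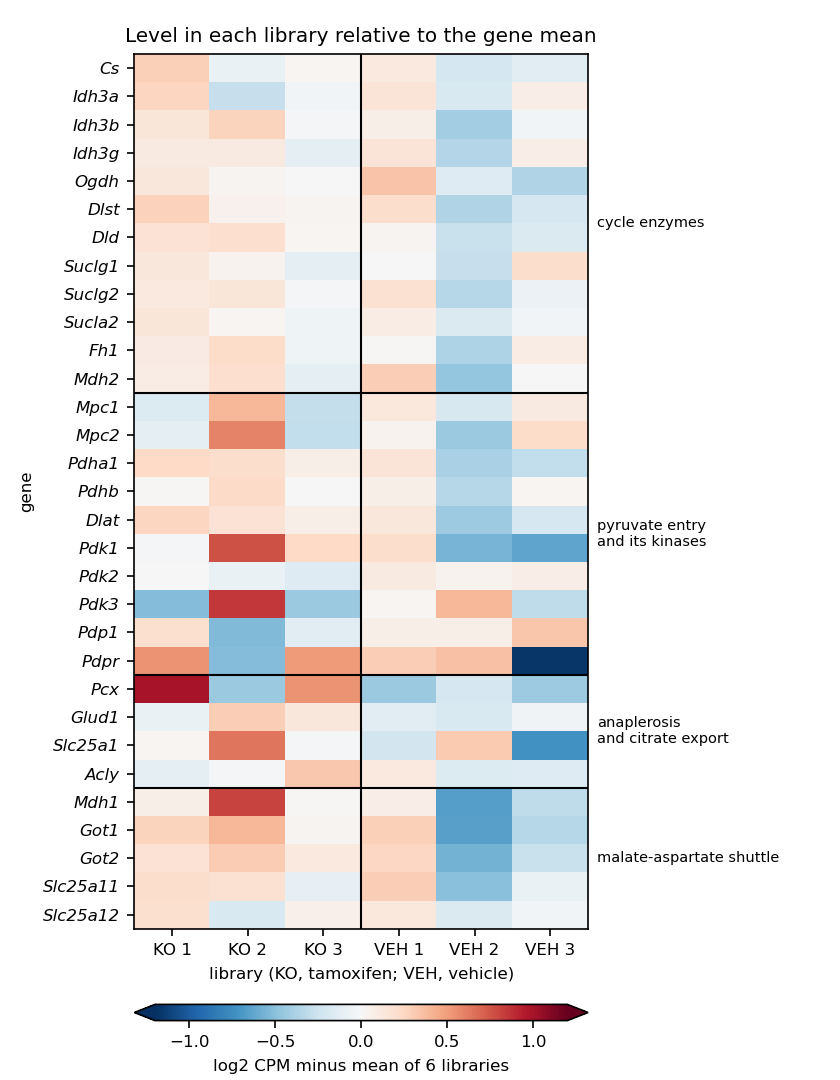
Level of each gene (rows, by role) in each library (columns, knockout left and vehicle right), as log2 CPM minus the mean of the 6 libraries. Vehicle replicate 2 is the lowest library in 20 of the 31 genes, and Pcx, Pdpr and Pdk3 follow patterns of their own.

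Levels between genes were compared on the authors' FPKM, which divide counts by gene length. That length is 1 value per gene, whichever transcripts the muscle holds, so comparisons between genes depend on it. Averaged over the 6 libraries, the malate dehydrogenases led with 510 FPKM for Mdh1 and 469 FPKM for Mdh2, followed by citrate synthase Cs at 348 FPKM and the catalytic isocitrate dehydrogenase subunit Idh3a at 302 FPKM. The lowest were Acly at 4.25, the citrate carrier Slc25a1 at 1.49 and the kinase Pdk3 at 0.476 FPKM. The order was not sharp. Of the 30 pairs of neighbours in it, 3 had ranges over the 6 libraries that did not overlap: Slc25a12 above Suclg2, Pdk1 above Acly, and Acly above Slc25a1.

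Among the 12 cycle enzymes, 11 were estimated higher in knockout (median log2 fold change 0.12) and 0 passed the test. The dehydrogenase subunit Dld, which pyruvate dehydrogenase and 2-oxoglutarate dehydrogenase share, had the smallest p of the group. Dld stood at 398, 406 and 359.8 CPM in knockout replicates 1 to 3, against 361, 293 and 314 CPM in vehicle replicates 1 to 3. The lowest knockout library lay just under the highest vehicle library, and the log2 fold change of 0.27 had a 95% interval of -0.15 to 0.68 (SE 0.19; edgeR adjusted p = 0.776).

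Idh3b, a regulatory subunit of the NAD-dependent isocitrate dehydrogenase, had 737, 800.1 and 655 CPM in knockout libraries, against 701, 499.6 and 650.2 CPM in vehicle libraries. Its groups overlapped through vehicle replicate 1, and the log2 fold change was 0.24 (SE 0.22; edgeR adjusted p = 0.823). Dlst, the succinyltransferase core of 2-oxoglutarate dehydrogenase, had 391, 334 and 329 CPM in knockout libraries, against 373, 251 and 280.2 CPM in vehicle libraries, with a log2 fold change of 0.22 (SE 0.21; edgeR adjusted p = 0.835). Here too vehicle replicate 1 stood among the knockout libraries.

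Mdh2, the malate dehydrogenase of the matrix and the most abundant cycle transcript, had 1023, 1107 and 889 CPM in knockout libraries, against 1179, 698 and 959 CPM in vehicle libraries. Its highest and its lowest library were both vehicle libraries, and the log2 fold change was 0.0901 (SE 0.25). The remaining 8 were Cs, which joins acetyl-CoA to oxaloacetate, the isocitrate dehydrogenase subunits Idh3a and Idh3g, Ogdh, the first component of 2-oxoglutarate dehydrogenase, the succinyl-CoA synthetase subunits Suclg1, Suclg2 and Sucla2, and the fumarase Fh1. Their log2 fold changes lay between -0.0245 for Idh3a and 0.16 for Fh1. The interval for Cs, often used as a measure of mitochondrial content, was -0.35 to 0.65 around an estimate of 0.15, with levels of 1189, 924 and 993 CPM in knockout and 1064, 846 and 891 CPM in vehicle libraries.

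Idh3a parted from its partners in knockout replicate 2. The ratio of Idh3a to Idh3b FPKM was 1.67, 1.06 and 1.53 in knockout replicates 1 to 3, against 1.63, 1.82 and 1.67 in vehicle replicates 1 to 3. That library was the lowest for Idh3a, at 598 CPM, and the highest for Idh3b. The succinyl-CoA synthetase subunit that makes ATP, Sucla2, outweighed the subunit that makes GTP, Suclg2, in every library, by a FPKM ratio of 3.71 ± 0.211 over knockout and 3.94 ± 0.365 over vehicle libraries (SD, n = 3 each).

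Of the 10 genes of pyruvate entry, 7 had a higher estimate in knockout and 3 a lower one, and 0 passed. Pdk1 (chr2:71873224-71903858, mm10) encodes a kinase that inactivates pyruvate dehydrogenase. Its level was 76.3, 131 and 91.1 CPM in knockout replicates 1, 2 and 3, against 89.7, 52.5 and 49.9 CPM in vehicle replicates 1, 2 and 3. Vehicle replicate 1 lay above knockout replicate 1, so the groups overlapped. Its log2 fold change of 0.64 had an SE of 0.28 and a 95% interval of 0.0142 to 1.26 (edgeR adjusted p = 0.666), with 0.39 when knockout replicate 2 and 0.96 when vehicle replicate 1 was left out.

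Pdk2, a more abundant kinase isoform (chr11:95026258-95041354, mm10), had 406, 385 and 364 CPM in knockout libraries, against 438, 417 and 429 CPM in vehicle libraries. All 3 knockout libraries lay below all 3 vehicle libraries, the only such separation among the 31 genes, but the difference was small, at a log2 fold change of -0.15 (SE 0.18; edgeR adjusted p = 0.873). On the authors' FPKM the separation was lost, since Pdk2 had 117, 138 and 123 FPKM in knockout libraries, against 133, 129 and 130.3 FPKM in vehicle libraries. On that scale 4 other members separated, all higher in knockout: Cs, Dld, Pdha1 and Dlat. These are 12.9% of the 31 genes, near the 10.8% of all tested genes that separated on that scale. Pdk3, another kinase isoform, was the scarcest of the 31 genes, with 27 to 70 reads in knockout and 35 to 54 reads in vehicle libraries.

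The phosphatase that reactivates the complex had estimates of both signs. Its catalytic subunit Pdp1 had 80.9, 49.1 and 64.7 CPM in knockout libraries, against 74.6, 74.3 and 89.4 CPM in vehicle libraries, for a log2 fold change of -0.29 (SE 0.20; edgeR adjusted p = 0.775). Its regulatory subunit Pdpr varied most of all 31 genes, by 3.27 times between the highest and the lowest library. Pdpr had 154, 73.4 and 150.03 CPM in knockout libraries, against 129.5, 134 and 46.98 CPM in vehicle libraries, for a log2 fold change of 0.28 (SE 0.42), with knockout replicate 2 and vehicle replicate 3 both low.

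The complex itself showed less spread. Pdha1, the alpha subunit of its first enzyme and the target of the kinases, had 1166, 1144 and 1037 CPM in knockout libraries, against 1102, 753 and 806 CPM in vehicle libraries, for a log2 fold change of 0.33 (SE 0.23; edgeR adjusted p = 0.775). Dlat, its acetyltransferase core, had 197, 186 and 173 CPM in knockout libraries, against 181, 122 and 144 CPM in vehicle libraries, with 0.31 (SE 0.19; edgeR adjusted p = 0.744). In both genes vehicle replicate 1 lay within the knockout range and vehicle replicates 2 and 3 below it. The FPKM ratio of Pdha1 to Dlat averaged 7.89 ± 0.165 over knockout libraries (SD, n = 3) and 7.80 ± 0.395 over vehicle libraries (SD, n = 3). The beta subunit Pdhb was at 0.16 (SE 0.20), and the pyruvate carrier subunits Mpc1 and Mpc2 were at -0.0064 (SE 0.23) and 0.15 (SE 0.27). Both carrier subunits were highest in knockout replicate 2, at 365 CPM for Mpc1 and 274 CPM for Mpc2.

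All 4 genes of anaplerosis and citrate export had a higher estimate in knockout, and 0 passed. Pcx (chr19:4510472-4621752, mm10), the pyruvate carboxylase that refills oxaloacetate, had the smallest p and the largest estimate of the 31 genes. It stood at 206, 76.4 and 151 CPM in knockout replicates 1, 2 and 3, against 76.3, 90.5 and 76.5 CPM in vehicle replicates 1, 2 and 3. Knockout replicates 1 and 3 were above every vehicle library, whereas knockout replicate 2 lay within the vehicle range. The log2 fold change of 0.83 had a 95% interval of 0.13 to 1.53 (SE 0.31; unadjusted p = 0.0248 and adjusted p = 0.643 with edgeR). It came to 0.48 with knockout replicate 1 left out and to 1.14 with knockout replicate 2 left out.

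Glud1, the glutamate dehydrogenase that feeds 2-oxoglutarate to the cycle, had 93.7, 122 and 109 CPM in knockout libraries, against 90.8, 87.2 and 96.2 CPM in vehicle libraries. Knockout replicate 1 fell among the vehicle libraries, and the log2 fold change was 0.24 (SE 0.16; edgeR adjusted p = 0.769). Slc25a1, which carries citrate out of mitochondria, had 3.11, 4.77 and 3.02 CPM in knockout libraries, against 2.63, 3.81 and 1.85 CPM in vehicle libraries, with overlapping groups and a log2 fold change of 0.39 (SE 0.34; edgeR adjusted p = 0.814). Acly, the cytosolic enzyme that splits exported citrate, was at 0.14 (SE 0.17).

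All 5 genes of the malate-aspartate shuttle were estimated higher in knockout (median log2 fold change 0.35), and 0 passed. Mdh1 (chr11:21556787-21572367, mm10), the cytosolic malate dehydrogenase, had 1283, 2137 and 1234 CPM in knockout replicates 1, 2 and 3, against 1288, 772 and 986 CPM in vehicle replicates 1, 2 and 3. Knockout replicate 2 stood far above the rest, and vehicle replicate 1 lay level with the other knockout libraries. The log2 fold change of 0.61 had a 95% interval of -0.0639 to 1.29 (SE 0.30; edgeR adjusted p = 0.689), and without knockout replicate 2 it was 0.31.

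Got1, the cytosolic aspartate aminotransferase, had 797, 875 and 678 CPM in knockout libraries, against 806, 422 and 524 CPM in vehicle libraries, for a log2 fold change of 0.42 (SE 0.27; edgeR adjusted p = 0.752). Got2, its mitochondrial counterpart, had 579.96, 636 and 559 CPM in knockout libraries, against 614, 348 and 428 CPM in vehicle libraries, with 0.35 (SE 0.24; edgeR adjusted p = 0.773). In both, vehicle replicate 1 was with the knockout libraries and vehicle replicates 2 and 3 were below all of them. The carriers showed smaller estimates, 0.16 (SE 0.23) for Slc25a11, which exchanges malate for 2-oxoglutarate, and 0.0549 (SE 0.21) for Slc25a12, which exchanges aspartate for glutamate.

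**Figure D3:**
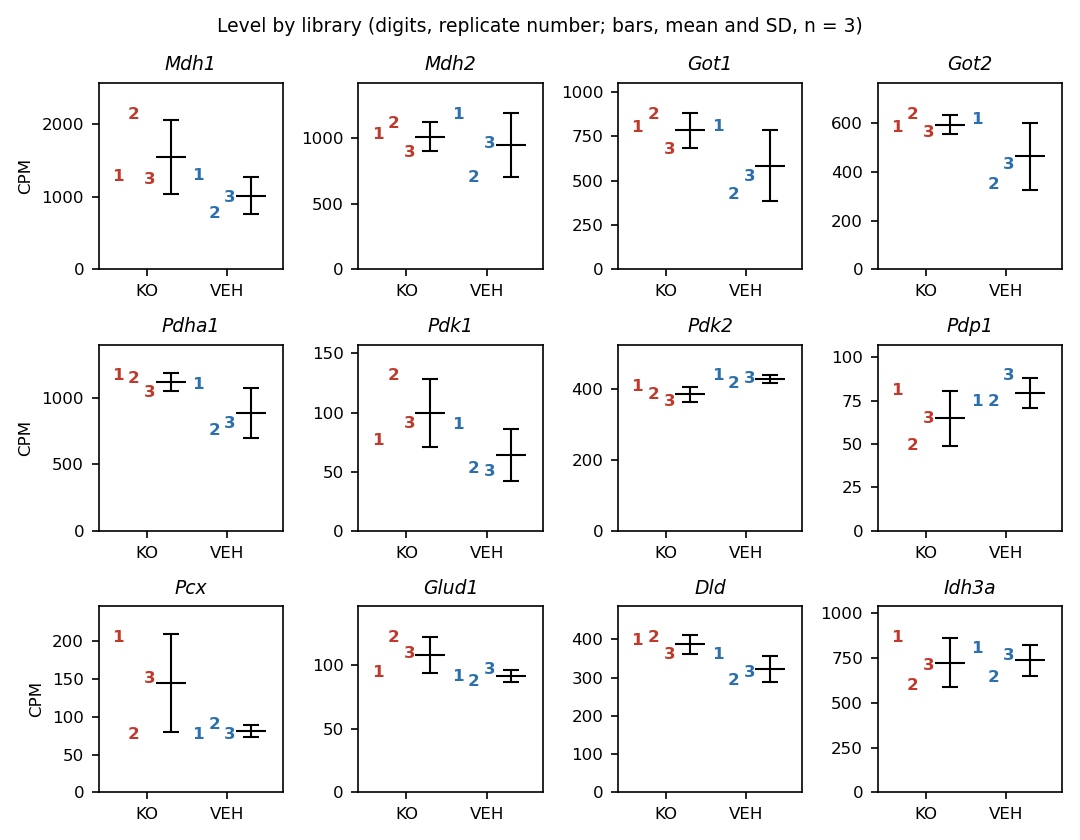
CPM (y axis, from 0) of 12 of the genes in the 3 knockout and 3 vehicle libraries. Digits are replicate numbers and bars the mean and SD of each group (n = 3). The groups overlap in every panel except that of Pdk2, where the knockout libraries lie at 364 to 406 CPM and the vehicle libraries at 417 to 438 CPM.

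Ratios of related enzymes within a library do not depend on how libraries are scaled. The cytosolic over the mitochondrial malate dehydrogenase, Mdh1 to Mdh2 in FPKM, was 1.02, 1.57 and 1.13 in knockout replicates 1 to 3, against 0.889, 0.900 and 0.837 in vehicle replicates 1 to 3. Every knockout library lay above every vehicle library, with means of 1.24 ± 0.291 and 0.875 ± 0.0337 (SD, n = 3 each). The corresponding aminotransferase ratio, Got1 to Got2, was 1.34 ± 0.0960 over knockout and 1.27 ± 0.0552 over vehicle libraries (SD, n = 3 each) and overlapped. Of 15 ratios, chosen after the values were seen and given no p, 1 other separated the groups: Slc25a12 to Slc25a13, 2 aspartate-glutamate carriers. It was 157, 67.5 and 129.8 in knockout libraries, against 204, 643 and 588 in vehicle libraries. How often ratios of other gene pairs separate was not computed. Of all tested genes taken singly, 12.3% separated on CPM and 10.8% on FPKM, so the separated ratios are described only.

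**Figure D4:**
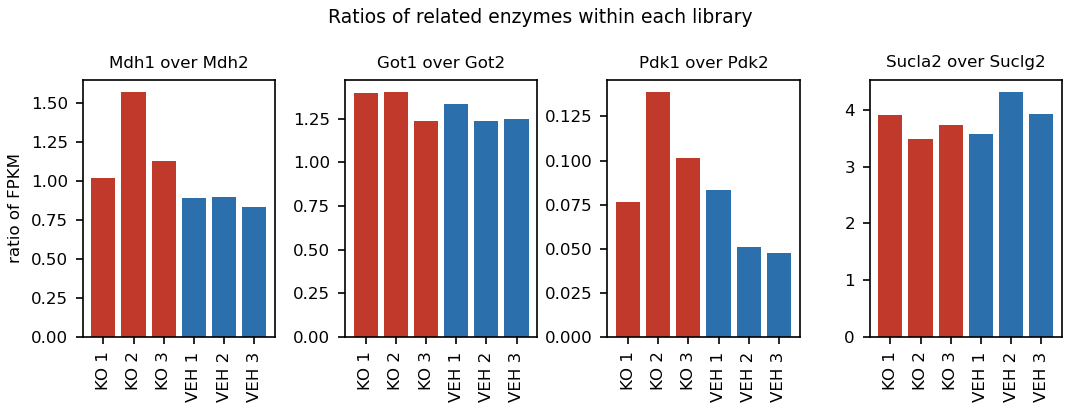
FPKM ratio of related enzymes in each library (bars from 0, knockout left and vehicle right). Mdh1 over Mdh2 is 1.02 to 1.57 in the 3 knockout libraries and 0.837 to 0.900 in the 3 vehicle libraries, while the other 3 ratios overlap between groups.

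The genes were next set against slow fibre content, measured as the mean log2 CPM of the 10 slow fibre markers (Myh7, Myl2, Myl3, Tnni1, Tnnc1, Tnnt1, Tpm3, Atp2a2, Casq2 and Myoz2), each centred on its 6 libraries. This mean was 0.0737, 2.45 and 0.78 in knockout replicates 1, 2 and 3, against 0.76, -1.93 and -2.13 in vehicle replicates 1, 2 and 3. All 10 markers had a higher estimate in knockout and 0 passed. Over the 6 libraries 28 of the 31 genes correlated positively with it, against 51.9% of all tested genes. The median Pearson r of the 31 was 0.57, while the median over all tested genes was 0.0403. The number positive and the median of the 31 rested largely on vehicle replicates 2 and 3. Over the 4 libraries without them, 18 of 31 were positive, near the 51.0% of all tested genes. Over those 4 the median r was 0.13 (0.0422 over all tested genes). A correlation of at least 0.8 was found in 7 of 31 genes (22.6%), against 9.95% of all tested genes, and of at most -0.8 in 1 of 31, against 8.5% of all tested genes. Of those 7, Pdk1 and Mdh1 stayed at 0.8 or above over the 4 libraries. There Dld had an r of 0.40, Pdha1 of 0.0962 and Dlat of -0.20. These 4 are the knockout libraries and vehicle replicate 1. Knockout replicate 2 lay far above the rest of them in slow fibre content, so r over them leans on that library. Over these 4 libraries 8 of 31 genes reached 0.8 (25.8%, against 18.5% of all tested genes) and 5 reached -0.8 (16.1%, against 21.7%). The points share their library scaling, and both groups enter the correlation.

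Pdk1 followed the slow fibre markers most closely. Its Pearson r was 0.999 and its Spearman rho was 1 over 6 libraries (exact permutation p = 0.00139, the smallest 720 orders can give, and 0.00278). Adjusted over the 31 relations computed, the exact permutation p was 0.0431 for r and 0.0861 for rho. Leaving out the vehicle replicates 2 and 3, which lay farthest from the median in slow fibre content, r was 0.9995 over the other 4 libraries. No more than 3 of the 15583 tested genes, Pdk1 included, had a correlation as high. On the log2 scale, Pdk1 was higher by 0.30 for each unit of the slow fibre mean. Knockout replicate 3 and vehicle replicate 1, nearly equal in slow fibre content, were nearly equal in Pdk1, at 91.1 and 89.7 CPM.

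The shuttle enzymes came next, with r of 0.93 for Mdh1, 0.89 for Got2 and 0.89 for Got1 and rho of 0.77 for each (exact permutation p of r 0.0139, 0.0167 and 0.0181, each 0.140 after adjustment over the 31 relations, and 0.103 for each rho, 0.527 after adjustment). Over the 4 libraries other than vehicle replicates 2 and 3, r was 0.93 for Mdh1, 0.72 for Got2 and 0.52 for Got1. The relation of Got1 thus rested more on those 2 libraries. The r of Mdh1 over these 4 rested on knockout replicate 2, at 2137 CPM against 1234 to 1288 CPM in the rest. Pdp1 ran the opposite way, with r of -0.82 and rho of -0.83 (exact permutation p = 0.0375 and 0.0583, and 0.172 and 0.527 after adjustment), and r of -0.97 over those 4 libraries. Pcx had an r of 0.0728 and rho of -0.2 (exact permutation p = 0.924 and 0.714, and 0.924 and 0.763 after adjustment). Over those 4 libraries, the r of Pcx was -0.72. Knockout replicate 2, the library richest in slow fibre markers, was the lowest knockout library for Pcx.

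With the slow fibre mean as a covariate in the edgeR fit, 19 of the 31 estimates were higher in knockout. The median of the 31 was 0.0265 on the log2 scale, against 0.0058 over all tested genes. The covariate came from the same 6 libraries, and all 10 of its markers had a higher estimate in knockout. This fit therefore cannot tell slow fibre content from treatment. The log2 fold change was then -0.0168 for Pdk1, 0.0535 for Mdh1, 0.0265 for Got1, 0.0088 for Got2 and 1.25 for Pcx (unadjusted p = 0.00457, adjusted p = 0.9998 with edgeR). Other markers also differed between libraries. The summed level of 8 adipocyte markers was 515, 800.4 and 283 CPM in knockout libraries, against 343, 269.6 and 236 CPM in vehicle libraries. That of 8 macrophage markers was 48.5, 151 and 143 CPM in knockout libraries, against 69.2, 51.7 and 38.3 CPM in vehicle libraries, and no marker of either list was at 0 in all libraries. The fast fibre markers summed to 212514, 88922 and 150459 CPM in knockout libraries, against 176099, 197500 and 190553 CPM in vehicle libraries, lowest in knockout replicate 2. This sum hides differences within the list, since 2 of its 12 markers, Myh1 and Myh2, had a higher estimate in knockout. Myh2 had 7253, 10537 and 7727 CPM in knockout libraries, against 7467, 2127 and 2174 CPM in vehicle libraries (edgeR adjusted p = 0.668). Fibroblast markers summed to 413, 1145 and 881 CPM in knockout libraries, against 565, 612 and 452 CPM in vehicle libraries. Each of these 4 sums overlapped between groups. The sum of 4 smooth muscle markers did not, at 182, 128 and 192 CPM in knockout libraries, against 210.4, 288 and 254 CPM in vehicle libraries. All 4 had a lower estimate in knockout, and 0 passed with edgeR (smallest adjusted p 0.526), while Cnn1 passed with DESeq2 (adjusted p = 0.0297). Schwann cell markers, of which 0 of 6 had a higher estimate, summed to 69.7, 102 and 114 CPM in knockout libraries, against 97.6, 181 and 115 CPM in vehicle libraries. Red blood cell markers summed to 1106, 2750 and 441 CPM in knockout libraries, against 501, 2973 and 643 CPM in vehicle libraries. They were highest in vehicle replicate 2, followed by knockout replicate 2. Endothelium markers summed to 230, 228 and 253 CPM in knockout libraries, against 254, 214 and 176 CPM in vehicle libraries. Both sums overlapped between groups. The part of all these markers in the results was not tested.

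**Figure D5:**
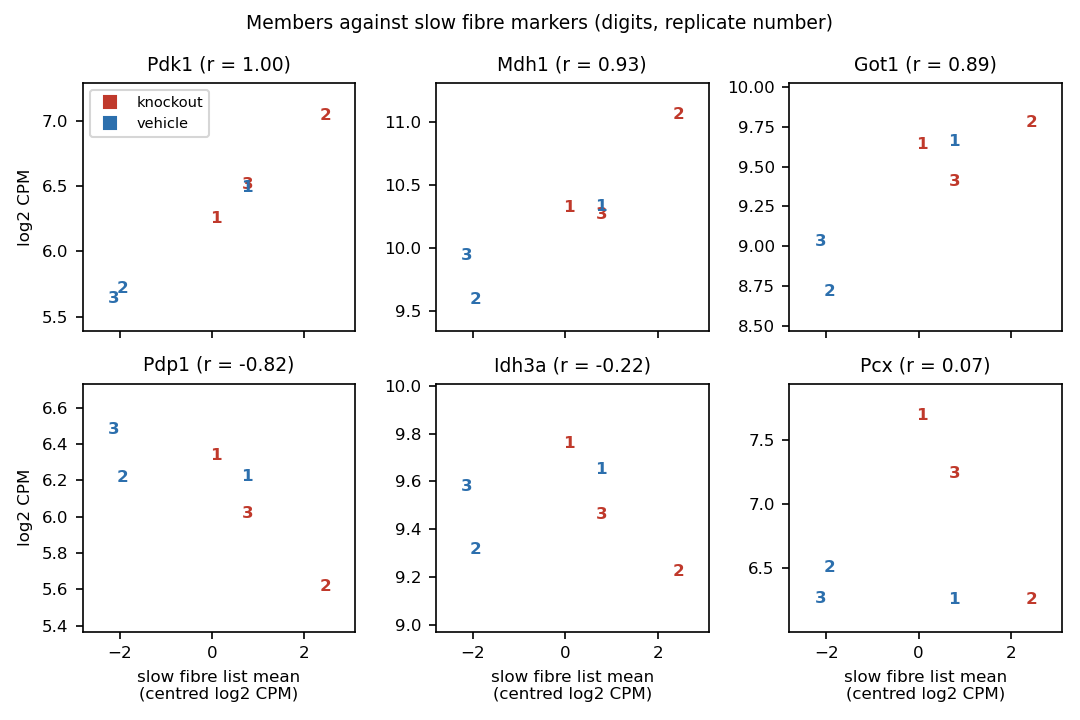
Log2 CPM of 6 genes (y axis) against the slow fibre marker mean (x axis, centred log2 CPM), with digits for replicate numbers and colours for group. Pdk1 lies on a rising line (r = 0.999), Mdh1 and Got1 rise, Pdp1 falls, and r is -0.22 for Idh3a and 0.0728 for Pcx. Over the 4 libraries without vehicle replicates 2 and 3, r is -0.94 for Idh3a and -0.72 for Pcx.

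The promoters of the 4 genes that tracked slow fibre markers most closely are shown to let their sequences be compared. They are RefSeq windows on GRCm38.p6, from 250 bases before to 50 bases after the transcription start, read along the gene's strand, and capitals mark GC boxes, GGGCGG on either strand.
Pdk1, chr2:71872974-71873273, plus strand: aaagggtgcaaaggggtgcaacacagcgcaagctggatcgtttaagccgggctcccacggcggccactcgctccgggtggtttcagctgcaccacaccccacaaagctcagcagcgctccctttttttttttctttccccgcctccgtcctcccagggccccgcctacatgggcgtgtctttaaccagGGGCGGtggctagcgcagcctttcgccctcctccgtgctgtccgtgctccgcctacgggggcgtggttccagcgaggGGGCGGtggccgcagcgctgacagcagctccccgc
Mdh1, chr11:21571885-21572184, minus strand: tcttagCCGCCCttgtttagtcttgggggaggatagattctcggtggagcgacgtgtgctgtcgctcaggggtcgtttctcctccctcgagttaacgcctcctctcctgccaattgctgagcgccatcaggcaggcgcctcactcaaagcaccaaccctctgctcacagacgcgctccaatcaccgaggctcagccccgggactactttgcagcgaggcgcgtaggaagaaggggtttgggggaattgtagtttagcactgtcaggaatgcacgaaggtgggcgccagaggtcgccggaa
Got2, chr8:95888352-95888651, minus strand: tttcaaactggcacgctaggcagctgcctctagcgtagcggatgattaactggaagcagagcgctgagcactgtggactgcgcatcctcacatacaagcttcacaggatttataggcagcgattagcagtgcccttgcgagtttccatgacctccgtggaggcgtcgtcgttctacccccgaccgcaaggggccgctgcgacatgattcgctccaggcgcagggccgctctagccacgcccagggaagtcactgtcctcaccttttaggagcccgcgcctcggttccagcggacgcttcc
Got1, chr19:43524556-43524855, minus strand: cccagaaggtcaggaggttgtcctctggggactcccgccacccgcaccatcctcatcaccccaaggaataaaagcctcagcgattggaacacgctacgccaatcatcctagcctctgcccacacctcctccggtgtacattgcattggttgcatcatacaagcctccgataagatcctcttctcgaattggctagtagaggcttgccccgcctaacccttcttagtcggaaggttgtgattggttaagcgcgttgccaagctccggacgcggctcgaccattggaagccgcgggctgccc

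The Pdk1 window holds 2 GC boxes and that of Mdh1 1, and those of Got2 and Got1 hold none. Windows were found for 29 of the 31 genes, and 20 of these (69.0%) held a GC box, where 38.2% of all 27025 genes with a window did. The cyclic AMP response element TGACGTCA, searched on both strands as were all motifs, was present in windows of Mdh2, Ogdh and Pdpr (3 of 29, 10.3%), against 2.03% of all genes. The NRF1 site was present in those of Dld and Sucla2 (6.90%, against 5.19% of all genes), and the E-box CACGTG in 5 (17.2%, against 8.09%). The estrogen-related receptor element TCAAGGTCA was in 0 of 29 and in 0.466% of all genes, and the direct-repeat vitamin D response element was in 0 of 29 and in 0.0074% of all genes. Each motif was searched on its own, so matches of different motifs may overlap, and a gene with several windows was counted once. The genes with a window were not limited to the 15583 tested genes, and the compared sets were not matched for base content. G and C made up 66%, 59.3%, 60% and 57.3% of the Pdk1, Mdh1, Got2 and Got1 windows. The median over all 32851 windows was 52.7%. Whether the higher motif percentages are particular to these pathways was therefore not tested. A match describes the letters of a window and is no evidence of binding.

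Of 28 other genes of the same pathways, 20 had a higher and 8 a lower estimate in knockout, for a median of 0.20 on the log2 fold change scale, and 0 passed in either direction with edgeR or DESeq2. At an unadjusted p below 0.05 there were 2 higher (7.14%, against 4.02% of all tested genes) and 1 lower (3.57%, against 3.42%). Groups did not overlap in 3 of the 28 as higher (Slc25a13, Slc25a10 and Aco1) and in 2 as lower (Me1 and Pcca). Of all tested genes, 5.83% separated as higher and 6.48% as lower. The 4 of smallest p were Slc25a13, Me1, Slc25a22 and Slc25a10. Slc25a13, the second aspartate-glutamate carrier beside Slc25a12, was scarce, at 1.60, 2.86 and 1.76 CPM in knockout libraries, against 1.18, 0.301 and 0.365 CPM in vehicle libraries. All knockout libraries lay above all vehicle libraries, with a log2 fold change of 1.77 (SE 0.55; edgeR adjusted p = 0.611).

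Me1, the cytosolic malic enzyme that turns malate into pyruvate and NADPH, had 132, 75.7 and 141 CPM in knockout libraries, against 146, 225 and 249 CPM in vehicle libraries. Its groups did not overlap either, but knockout replicate 3 lay just under vehicle replicate 1. The log2 fold change was -0.83 (SE 0.28, edgeR adjusted p = 0.628). The glutamate carrier Slc25a22 had 32.4, 92.7 and 51.6 CPM in knockout libraries, against 41.1, 14.9 and 23.3 CPM in vehicle libraries, and its log2 fold change was 1.16 (SE 0.45; edgeR adjusted p = 0.645). Its groups overlapped through vehicle replicate 1. The dicarboxylate carrier Slc25a10 had 3.37, 5.96 and 3.284 CPM in knockout libraries, against 3.281, 1.75 and 2.35 CPM in vehicle libraries, and its log2 fold change was 0.77 (SE 0.35; edgeR adjusted p = 0.672). Its groups separated only by the narrow gap between knockout replicate 3 and vehicle replicate 1. Their r with the slow fibre mean was 0.96 for Slc25a13, -0.96 for Me1, 0.95 for Slc25a22 and 0.94 for Slc25a10. In the same order, rho was 0.89, -0.83, 0.94 and 0.77. Of all tested genes, 9.95% had an r of at least 0.8 and 8.5% of at most -0.8. The 4 were picked for their difference between groups, and all 10 slow fibre markers had a higher estimate in knockout. High correlations were therefore favoured by that choice. Over the 4 libraries without vehicle replicates 2 and 3, r was 0.80, -0.89, 0.98 and 0.93. There 18.5% of all tested genes reached 0.8 and 21.7% reached -0.8. The exact permutation p of r was 0.00972, 0.0125, 0.00417 and 0.0153, or 0.050, 0.050, 0.0389 and 0.0535 after adjustment over these 28 genes, and that of rho was 0.0333, 0.0583, 0.0167 and 0.103, or 0.156, 0.181, 0.156 and 0.221.

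The fourth pyruvate dehydrogenase kinase, Pdk4, is added here after its values were seen because it made up most of the kinase FPKM. By FPKM it supplied 64.2% ± 5.72 of the 4 kinases in knockout and 57.5% ± 4.30 in vehicle libraries, Pdk2 supplied 32.4% ± 6.10 and 40.0% ± 4.58, and Pdk1 3.30% ± 0.420 and 2.38% ± 0.585 (SD, n = 3 each). These shares depend on the gene lengths used, 7779 bases for Pdk1, 3163 for Pdk2 and 3511 for Pdk4. Pdk4 had 666, 1079 and 866 CPM in knockout libraries, against 800.1, 724 and 553 CPM in vehicle libraries. Its groups overlapped, and the log2 fold change was 0.33 (SE 0.25, edgeR adjusted p = 0.794).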

How the data were processed

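Gastrocnemius RNA of 3 knockout and 3 vehicle mice was sequenced after poly(A) selection with a stranded Illumina TruSeq kit, per the labels' protocols. STAR 2.6.1c, featureCounts (Subread 1.5.1) and mm10 were used, per the submitters' processing notes, while the strand setting and the annotation release were not given in the sources used here. The authors deposited whole-number counts per gene and FPKM beside them, which on checking equal count per (length + 1) per column total. Of the 31 genes, 12 overlap an annotated gene on the opposite strand in GENCODE M21, Mdh1, Pcx and Pdk2 among them, and reads of such pairs may not be told apart.

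From the counts, genes were filtered with filterByExpr (minimum count 10, minimum total 15), scaled by TMM and tested with edgeR 4.0.16 quasi-likelihood (robust) in R 4.3.3, with p-values adjusted over all 15583 tested genes. DESeq2 1.42.0 and limma 3.58.1 were alternatives, and the procedure was tested on simulated data. Counting alone limits detection to 0.0782 to 0.0928 CPM (3 counts), which covers counting error only. Slow fibre means used log2(CPM + 0.5). Each library is 1 mouse. Members, lists and tests were chosen with earlier results of these data known. Values per library are given for the 3 genes of smallest p and the most abundant gene of each role, and for the 4 other pathway genes of smallest p. They are also given for others chosen after their values were seen (Cs, Idh3a, Pdk2, Pdpr, Pdk4 and the fast fibre marker Myh2). No protein sequence was used here.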

Additional observations from a re-analysis of the deposited data

How the results depend on the processing

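Under 16 alternatives the log2 fold changes of the 31 genes gave 496 values, of which 458 kept their direction and 38 turned, 0 passed an adjusted p of 0.05, and 17 genes never turned. The lowest adjusted p was 0.163, for Pcx without knockout replicate 2. At an unadjusted p below 0.05, 1 of the 31 genes was higher with voom sample weights, where 3.92% of all tested genes were. The number higher was also 1 with limma on log2(FPKM + 1) (4.18% of all tested genes) and 1 with the slow fibre covariate (0.834%). It was 3 with DESeq2 (4.38%) and 3 without the low-count filter (3.5%), Mdh1 being the third gene in both. When each replicate was left out it lay between 0 and 5. The number lower lay between 0 and 1 when each replicate was left out, with 1 without knockout replicate 1. Genes whose groups did not overlap numbered 2 to 14 when each replicate was left out, with 14 without vehicle replicate 1, and 4 on the deposited FPKM (12.9%, against 10.8% of all tested genes), an alternative chosen after seeing the data. With fewer libraries, more genes separate by construction: without vehicle replicate 1, 45.2% of the 31 genes and 27.2% of all tested genes did, and without any other single library 6.45% to 19.4% of the 31 genes and 18.1% to 30.9% of all tested genes. Directions turned for Mpc1 with upper-quartile factors (0.0018); for Idh3a (0.0139), Mpc2 (-0.00062) and Pdk3 (-0.40) with voom weights; for Idh3a (0.0585) and Mpc1 (0.0621) on log2(FPKM + 0.1); and for Idh3a (0.0583) and Mpc1 (0.0620) on log2(FPKM + 1). With the slow fibre covariate they turned for Idh3a (0.0383), Idh3g (-0.0771), Ogdh (-0.17), Suclg2 (-0.0527), Mdh2 (-0.19), Mpc2 (-0.21), Pdhb (-0.0200), Pdk1 (-0.0168), Pdk3 (-0.60) and Slc25a11 (-0.0981). Leaving out each replicate gave ranges that cross 0 for Idh3a (-0.18 to 0.0952), Idh3g (-0.0886 to 0.15), Ogdh (-0.0609 to 0.31), Suclg1 (-0.0947 to 0.16), Mdh2 (-0.0953 to 0.28), Mpc1 (-0.24 to 0.12), Mpc2 (-0.17 to 0.32), Pdk3 (-0.55 to 0.27), Pdpr (-0.0706 to 0.55), Slc25a11 (-0.0225 to 0.38) and Slc25a12 (-0.0382 to 0.15). The cause was not tested. Over the whole table, genes passing an adjusted p of 0.05 numbered 0 with edgeR, 29 without the low-count filter, 109 with DESeq2 and 24 without knockout replicate 1. No paired analysis was possible because the labels carry animal numbers only and the groups share no replicate number. With 3 mice in each group and standard errors of 0.16 to 0.46, small differences were not detectable. Larger log2 fold changes, 0.83 for Pcx and 1.77 for Slc25a13, did not pass with edgeR either.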
